A study of Mus musculus with 10 samples.

Results

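The LINC complex (linker of nucleoskeleton and cytoskeleton) and the torsin system were examined in hearts of Lmna knockout mice. Lmna codes for lamins A and C, fibres of the nuclear lamina. The set held 9 genes, chosen by name: the SUN genes Sun1 and Sun2, the nesprin genes Syne1, Syne2 and Syne3, the torsin genes Tor1a and Tor1b, and the torsin cofactor genes Tor1aip1 and Tor1aip2. All 9 were found among the 14626 named genes of the table, and all 9 had a mean signal of at least 1 and so were among the 12855 genes tested. Hearts came from 5 Lmna knockout mice (KO, Lmna -/-) and 5 wild-type mice (WT). All 10 mice were C57BL/6 and 14 days old, and each heart gave 1 RNA library. The labels name neither the Lmna allele nor a Cre line, and no agent was given. Values are signal units as the authors deposited them, CPM after scaling of each library's total.

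SUN proteins sit in the inner nuclear membrane, where they touch the lamina, and in the lumen between the membranes they hold the KASH tails of nesprins, which sit in the outer membrane. The giant nesprins 1 and 2 reach actin and microtubule motors, and nesprin 3 reaches intermediate filaments through plectin, so the chain passes force between the cytoskeleton and the lamina, which matters in beating muscle. Torsins are ATPases of the lumen of the endoplasmic reticulum and nuclear envelope that work only with a membrane-bound cofactor, LAP1 (Tor1aip1), which binds lamins, or LULL1 (Tor1aip2).

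The promoters of Sun1 and Sun2 are shown because their ratio was lower in every KO library than in any WT library. Those of the giant nesprins are shown because both were lowest in KO library 2. The Pearson r of their log2 signal was 0.96 over the 10 libraries and 0.48 over the 9 without that library. Each window runs from 250 bases before to 50 bases after a RefSeq start (build GRCm38.p6, which is the mm10 assembly) that coincides with the 5′ end of the deposited locus. Capitals mark GGGCGG and CCAAT on either strand, which overlap in places.
Sun1, chr5:139200387-139200686, plus strand: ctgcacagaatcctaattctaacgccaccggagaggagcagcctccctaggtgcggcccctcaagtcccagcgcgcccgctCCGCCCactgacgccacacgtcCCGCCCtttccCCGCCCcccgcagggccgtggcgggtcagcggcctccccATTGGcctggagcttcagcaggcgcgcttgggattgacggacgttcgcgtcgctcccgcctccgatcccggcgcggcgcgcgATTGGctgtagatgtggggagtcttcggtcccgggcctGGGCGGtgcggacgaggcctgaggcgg
Sun2, chr15:79742487-79742786, minus strand: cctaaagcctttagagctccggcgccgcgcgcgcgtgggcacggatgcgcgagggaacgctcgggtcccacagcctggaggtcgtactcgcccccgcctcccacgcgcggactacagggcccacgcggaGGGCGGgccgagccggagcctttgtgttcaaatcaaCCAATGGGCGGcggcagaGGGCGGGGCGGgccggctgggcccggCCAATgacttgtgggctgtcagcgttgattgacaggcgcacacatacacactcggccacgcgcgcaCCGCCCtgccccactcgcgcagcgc
Syne1, chr10:5550643-5550942, minus strand: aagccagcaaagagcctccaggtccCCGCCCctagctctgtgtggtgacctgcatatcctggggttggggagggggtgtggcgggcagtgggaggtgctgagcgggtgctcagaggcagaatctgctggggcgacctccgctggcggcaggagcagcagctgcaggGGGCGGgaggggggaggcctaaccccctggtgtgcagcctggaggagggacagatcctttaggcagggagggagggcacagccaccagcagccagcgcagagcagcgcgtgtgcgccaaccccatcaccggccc
Syne2, chr12:75818068-75818367, plus strand: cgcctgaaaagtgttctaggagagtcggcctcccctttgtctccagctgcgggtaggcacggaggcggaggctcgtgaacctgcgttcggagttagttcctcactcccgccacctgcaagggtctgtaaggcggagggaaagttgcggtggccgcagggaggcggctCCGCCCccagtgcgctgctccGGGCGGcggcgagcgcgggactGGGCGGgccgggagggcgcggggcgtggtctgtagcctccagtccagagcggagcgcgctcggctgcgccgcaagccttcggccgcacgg
The Sun1 window held GGGCGG 4 times and CCAAT 2 times, and the Sun2 window held them 5 and 2 times. The Syne1 and Syne2 windows held GGGCGG 2 and 3 times and no CCAAT. Of 32851 windows of this length, 35.7% held GGGCGG and 37.4% held CCAAT. None of the 4 windows held TATAAA, which 13.6% of all windows held, or the E-box CACGTG, which 7.15% held. None held the forkhead letters GTAAACA, held by 3.65%, or the cAMP-response letters TGACGTCA, held by 1.79%. The G and C content was 71.3% for Sun1 and Sun2, 69.0% for Syne1 and 71.0% for Syne2, against a median of 52.7% over all windows.

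Lmna itself was at 38.4, 22.1, 30.3, 28.7 and 48.9 in KO libraries 1 to 5, against 102.3 to 110.1 in the 5 WT libraries, so the knocked-out gene separated the genotypes as labelled. The KO mean of Lmna was 0.318 of the WT mean, so Lmna RNA was still counted in KO hearts. Recovered totals were 15259545 to 22146030 reads. KO library 5 stood apart, correlating on average at 0.905 with WT libraries, and KO library 2 less so (0.962), against 0.982 to 0.985 for KO libraries 1, 3 and 4 and 0.989 to 0.991 among WT libraries. The sum of 8 cardiomyocyte markers was 84530 in KO library 2 and 79050 in KO library 5, against 117600 to 140700 in the other KO libraries and 138700 to 156500 in WT, and none of the 8 was at 0. The sum of 7 fibroblast markers was 1945 in KO library 5, against 4082 to 5997 in the other KO libraries and 4636 to 5854 in WT. The sum of 4 lymphocyte markers was 8.64 in KO library 5. It was 1.44 to 2.09 in the other KO libraries and 1.16 to 2.19 in WT. Only 1 of these 4 markers had a mean signal of at least 1, so this sum lies near the floor. In KO library 5 the smooth muscle and pericyte, macrophage and erythroid sums were 894.9, 94.27 and 26.77. The lowest WT sums were 1181, 152.4 and 71.28. KO library 4 was also below WT for smooth muscle and pericyte (1015) and erythroid (57.32) markers, and KO library 3 for the former (1141). The macrophage sum of KO library 2, 197, was above the highest WT sum of 169.4. In whole hearts fewer cells of a type and less RNA per cell cannot be told apart. Fits that rest on KO libraries 2 or 5 are given with and without them.

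None of the 9 genes passed the adjusted threshold in either direction, where 0.202% of all genes tested did (26 of 12855, limma on log2(signal + 0.5), two-sided, Benjamini-Hochberg adjusted p under 0.05 over all genes). Limma adjusted p-values of the 9 ran from 0.213 for Syne3 to 0.952 for Sun1. At an unadjusted p under 0.05 limma had 1 of the 9, Syne3, where 20.8% of all genes had one. edgeR's quasi-likelihood test and DESeq2 on recovered reads each called 0 of the 9, where they called 0.156% and 6.11% of all genes. Each had 2 of the 9, Syne3 and Sun2, at an unadjusted p under 0.05, where edgeR had 21.2% and DESeq2 22.5% of all genes. In the authors' deposited table Syne3 had a false discovery rate of 0.0491 and a log2 ratio of 0.91, where 5.52% of genes were under 0.05, and the other members had rates of 0.193 to 0.996. The median log2 change of the 9 was 0.02, against -0.01 over all genes tested, and without KO library 5 it was -0.05 for the 9 and -0.01 over all genes.

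**Figure D1:**
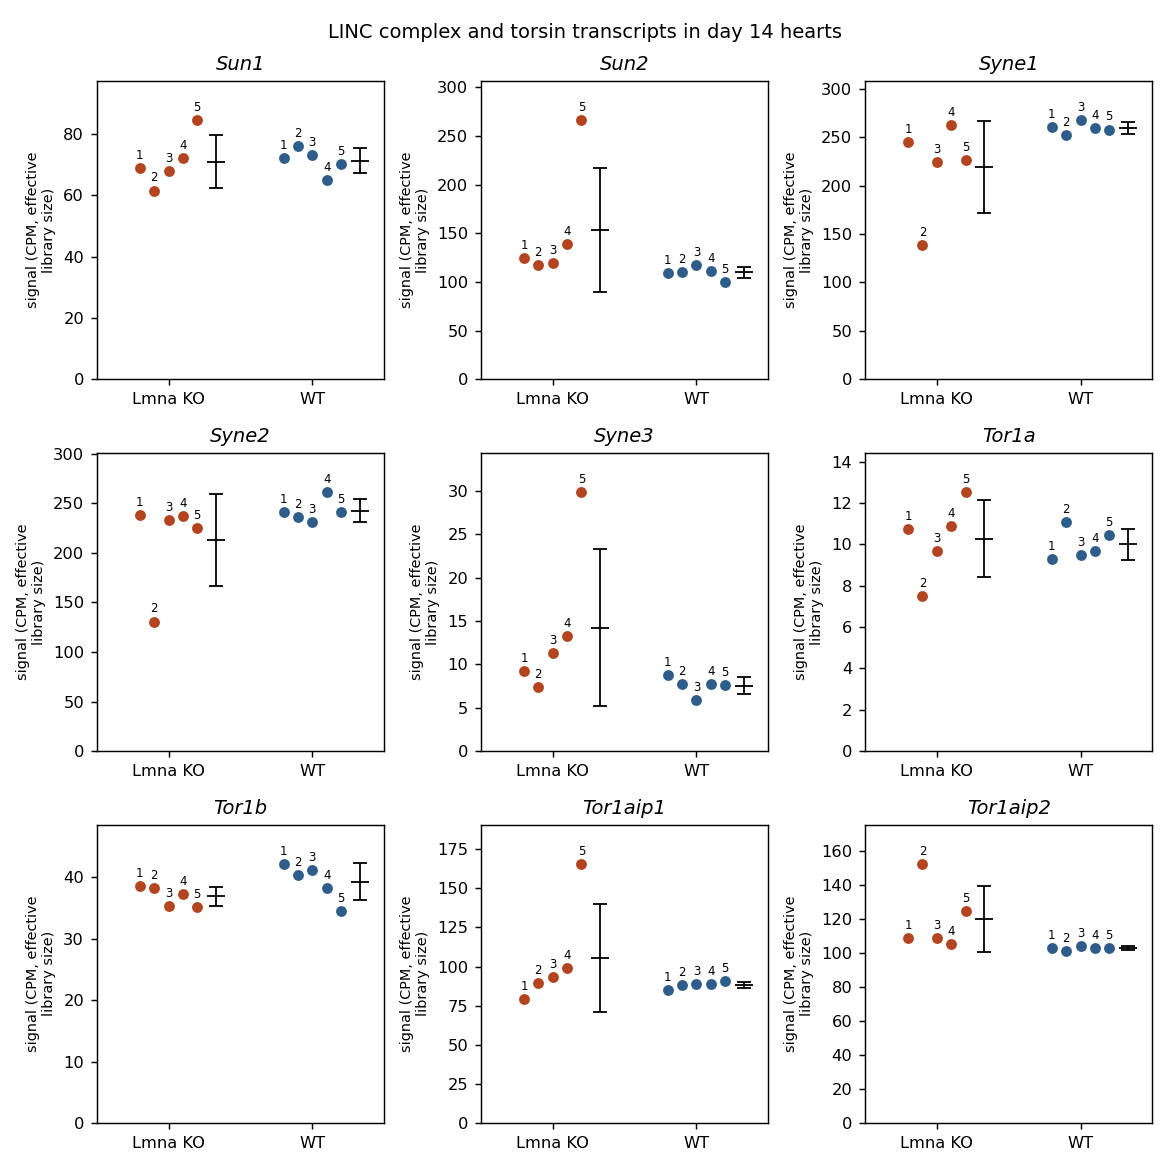
Signal of each of the 9 genes by library (points, numbered by replicate; vertical axes in signal units, from 0), Lmna KO left and WT right, with mean and SD beside the points. KO library 5 is highest for Sun2 (266.6), Syne3 (29.9) and Tor1aip1 (165.9), and KO library 2 is lowest for Syne1 (138.9) and Syne2 (130.7).

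Sun2 was higher in every KO library than in any WT library, while Sun1 overlapped between the genotypes, and neither passed the adjusted threshold. Sun2 (chromosome 15, 79724068 to 79742536) was at 124.7, 117.5, 119.8, 139.1 and 266.6 in KO libraries 1 to 5, against 109.2, 110.7, 117.2, 111.7 and 100.4 in WT libraries 1 to 5. Every KO library lay above every WT library, narrowly so for KO library 2, and KO library 5 was 2.43 times the WT mean. The log2 change was 0.41 (SE 0.20, limma adjusted p = 0.264). Without KO library 5 the mean was 125.3 ± 9.71 in KO (SD, n = 4) and 109.8 ± 6.06 in WT (SD, n = 5), and the log2 change was 0.19 (SE 0.07, limma adjusted p = 0.164). Leaving out that library moved the estimate by over 1.5 times, and Sun2 was not called with it or without it. The part of the marker sums of KO library 5 in the values of Sun2, Syne3 and Tor1aip1 was not tested.

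Sun1 (chromosome 5, 139200637 to 139249839) was at 69.0, 61.6, 67.8, 72.2 and 84.6 in KO libraries 1 to 5, against 72.2, 76.1, 73.3, 65.0 and 70.1 in WT libraries 1 to 5. The genotypes overlapped, with KO library 2 below and KO library 5 above the WT range. The mean was 71.0 ± 8.50 in KO and 71.3 ± 4.16 in WT (SD, n = 5 each), a log2 change of -0.01 (SE 0.10, limma adjusted p = 0.952). Proteins were not measured.

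The balance of the SUN genes was then compared within each library, since a ratio of genes in a library hardly depends on how libraries are scaled. The ratio of Sun1 to Sun2 signal was 0.553, 0.524, 0.566, 0.519 and 0.317 in KO libraries 1 to 5, against 0.661, 0.687, 0.625, 0.582 and 0.698 in WT libraries 1 to 5. It was lower in every KO library than in any WT library. KO libraries 1 to 4 lay close under the lowest WT value, and KO library 5 far below it. On the log2 scale the mean was -1.04 ± 0.35 in KO and -0.62 ± 0.11 in WT (SD, n = 5 each), a difference of -0.42 (two-sided exact permutation p = 0.00794, the smallest that 5 against 5 values allow). Adjusted over the 4 ratios compared here the exact p was 0.0317. Without KO library 5 the difference was -0.26, with an exact permutation p of 0.0159, again the smallest possible, and 0.0635 adjusted over the 4 ratios, which is also the lowest adjusted value that 5 against 4 values allow when the other ratios do not differ. Among single genes, 10.3% of those tested did not overlap between the genotypes in either direction. The share among ratios of other gene pairs was not counted. Sun1 itself changed little (log2 change -0.01), so the ratio mostly repeats Sun2 (0.41), which was not called over all genes. The members were chosen with earlier results of these data known, which the adjustment over 4 ratios does not cover.

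**Figure D2:**
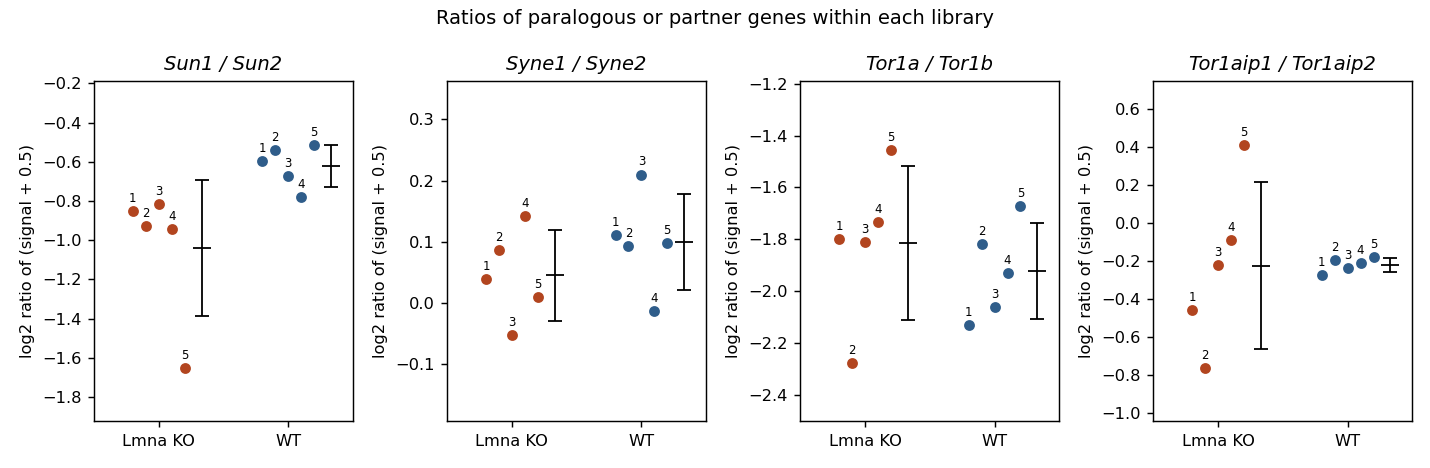
Log2 ratio of (signal + 0.5) of 4 gene pairs in each library (points, numbered by replicate), Lmna KO left and WT right, with mean and SD beside the points. Sun1 to Sun2 is lower in all 5 KO libraries than in any WT library, while Tor1aip1 to Tor1aip2 spreads to both sides of a narrow WT range.

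The giant nesprin genes were lower in KO library 2. Syne1 was at 244.8, 138.9, 224.8, 262.2 and 226.3 in KO libraries 1 to 5, against 261.0, 251.9, 267.9, 259.3 and 258.0 in WT libraries 1 to 5. Of the KO libraries 4 lay below every WT library, KO library 4 lay within the WT range, and KO library 2 was 0.535 of the WT mean. Syne2 (chromosome 12, 75818318 to 76110928) was at 238.2, 130.7, 233.2, 237.4 and 224.6, against 241.5, 236.2, 231.5, 261.6 and 241.0 in WT. Only KO libraries 2 and 5 lay below the WT range of Syne2, and KO library 2 was 0.539 of the WT mean.

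Log2 changes were -0.27 (SE 0.15) for Syne1 and -0.22 (SE 0.16) for Syne2 (limma adjusted p = 0.313 and 0.426). Without KO library 2 they were -0.12 and -0.05 (limma adjusted p = 0.293 and 0.600), so that library moved both by over 1.5 times. Without KO libraries 2 and 5 they were -0.09 and -0.04 (limma adjusted p = 0.316 and 0.700). The ratio of Syne1 to Syne2 was 1.03, 1.06, 0.964, 1.10 and 1.01 in KO libraries 1 to 5 and 0.991 to 1.16 in WT, and the genotypes overlapped (log2 difference -0.05, exact permutation p = 0.286, 0.571 adjusted over the 4 ratios). Syne1 and Syne2 thus kept their ratio in KO library 2 while both were low. In the same library the 8 cardiomyocyte markers summed to 0.555 and 6 endothelial markers to 0.643 of the WT mean. In KO library 5 the cardiomyocyte markers summed to 0.519 of the WT mean, while Syne1 was at 0.872 and Syne2 at 0.927 of theirs. The part of the markers in the nesprin values was not tested.

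**Figure D3:**
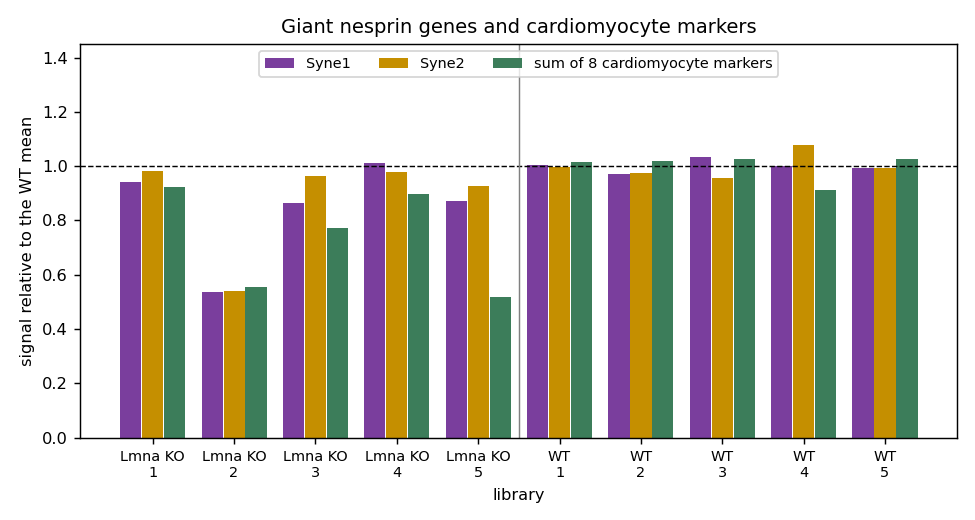
Signal of Syne1, Syne2 and the sum of 8 cardiomyocyte markers in each library, as bars relative to the WT mean (dashed line at 1), Lmna KO left of WT. In KO library 2 all 3 are low (0.535, 0.539 and 0.555), and in KO library 5 the marker sum is 0.519, beside 0.872 for Syne1 and 0.927 for Syne2.

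The levels of transcripts of like length were set beside Syne1 (6990 bases in the model that matches its deposited locus) and Syne2 (21704 bases). Of the 12266 genes tested with a GENCODE M21 length, the 261 with transcripts of 10000 bases or more had a median log2 difference from the WT mean of 0.07 in KO library 2 and 0.12 in KO library 5. The 2117 with transcripts of 5000 to 10000 bases had 0.09 and 0.02 in these libraries, and the 3459 with transcripts under 2000 bases had -0.17 and -0.05. In KO library 2 Syne1, with -0.90, and Syne2, with -0.89, lay below the median of their length classes. A median does not give the spread of a class, and the part of transcript length in these values was not tested.

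The deposited locus of Syne1 (chromosome 10, 5336949 to 5550692, minus strand) covers the 5′ part of the gene, which GENCODE M21 extends from 5020917 to 5551482. It starts and ends as the model Syne1-201 does, of 6990 bases, within a few bases. The model Syne1-202 (5021579 to 5069063), which lies at the 3′ end of the gene, where the KASH tail is encoded and from which short muscle forms of nesprin 1 are known, is outside that locus, and so is another coding model (5117100 to 5194707). The values of Syne1 may therefore leave out short forms from the 3′ end. Which exons were counted is not given in the sources used here.

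Syne3, the gene of nesprin 3, was the member with the largest log2 change. It was at 9.25, 7.37, 11.3, 13.3 and 29.9 in KO libraries 1 to 5, against 8.73, 7.71, 5.94, 7.75 and 7.67 in WT libraries 1 to 5. Of 5 KO libraries 4 lay above every WT library, KO library 2 lay within the WT range, and KO library 5 was 3.96 times the WT mean. The mean was 14.2 ± 9.05 in KO and 7.56 ± 1.01 in WT (SD, n = 5 each). The log2 change was 0.71 (SE 0.30, limma adjusted p = 0.213). The 0.5 added lowers the change of a low gene, here by little, since the log2 change was 0.73 with 0.1 added.

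Without KO library 5 Syne3 had a mean of 10.3 ± 2.56 in KO (SD, n = 4) and 7.56 ± 1.01 in WT (SD, n = 5), and a log2 change of 0.40 (SE 0.16, limma adjusted p = 0.174). Without KO libraries 2 and 5 the KO mean was 11.3 ± 2.02 (SD, n = 3), and Syne3 rose by 0.54 on the log2 scale (SE 0.14, limma adjusted p = 0.0316), where 10.7% of all genes were called. With library weights, which count libraries that stand apart for less, it rose by 0.53 (limma adjusted p = 0.0166), where 17.7% of all genes were called. Syne3 had 89 to 589 reads in a library and was the lowest of the 9 genes in each WT library by signal, while in KO libraries 3, 4 and 5 it lay above Tor1a. The spread among WT libraries was 13.3% of the mean, where counting error alone gives 8.59%. Its locus is on chromosome 12, 104929933 to 105009809.

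**Figure D4:**
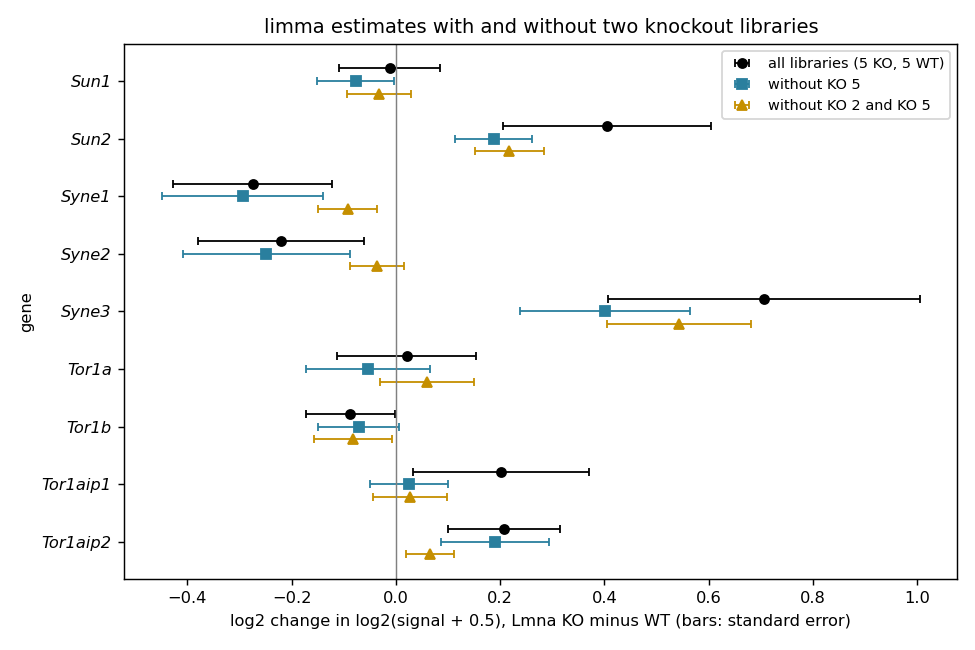
Log2 change, Lmna KO minus WT, of each gene with its standard error (horizontal axis) with all libraries, without KO library 5 and without KO libraries 2 and 5. The estimate for Syne3 is 0.71, 0.40 and 0.54, and that for Sun2 is 0.41, 0.19 and 0.22, while those for Sun1, Tor1a and Tor1b stay between -0.09 and 0.06.

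The torsin genes Tor1a and Tor1b, neighbours on chromosome 2, overlapped between the genotypes, and neither passed the adjusted threshold. Tor1a (30960561 to 30967918), the gene mutated in early-onset dystonia in people, was at 10.7, 7.49, 9.70, 10.9 and 12.5 in KO libraries 1 to 5, against 9.27, 11.1, 9.48, 9.69 and 10.5 in WT libraries 1 to 5. KO library 2 lay below and KO library 5 above the WT range, and the log2 change was 0.02 (SE 0.13, limma adjusted p = 0.940). Tor1b (30953001 to 30959015), the close relative of Tor1a, was at 38.5, 38.2, 35.3, 37.3 and 35.2 in KO libraries 1 to 5, against 42.3, 40.4, 41.1, 38.3 and 34.5 in WT. All 5 KO libraries lay within the WT range, and the log2 change was -0.09 (SE 0.08, limma adjusted p = 0.558). Tor1b was the only member whose KO spread (1.58, SD) was smaller than its WT spread (3.07, SD). The log2 ratio of Tor1a to Tor1b was -1.81 ± 0.30 in KO and -1.92 ± 0.18 in WT (SD, n = 5 each, exact permutation p = 0.516, 0.688 adjusted over the 4 ratios). Tor1a had only 130 to 247 reads in a library, and its WT spread of 7.60% of the mean was close to the 7.45% that counting error gives.

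The cofactor genes Tor1aip1 and Tor1aip2 lie head to head on chromosome 1, and each was highest in a different KO library. Tor1aip1 (156004599 to 156036480, minus strand), the gene of LAP1, was at 79.0, 89.7, 93.4, 99.0 and 165.9 in KO libraries 1 to 5, against 85.1, 88.4, 88.6, 88.9 and 90.7 in WT libraries 1 to 5. KO library 1 lay below the WT range, KO libraries 3 and 4 lay above it, and KO library 5 was 1.88 times the WT mean. The log2 change was 0.20 (SE 0.17, limma adjusted p = 0.491), and 0.03 without KO library 5 (limma adjusted p = 0.871).

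Tor1aip2 (156035664 to 156068859, plus strand), the gene of LULL1, was at 108.9, 152.9, 108.9, 105.6 and 124.7 in KO libraries 1 to 5, against 103.1, 101.3, 104.5, 103.2 and 103.0 in WT libraries 1 to 5. Every KO library lay above every WT library, KO library 4 by little, and KO library 2 was 1.48 times the WT mean. The log2 change was 0.21 (SE 0.11, limma adjusted p = 0.284), and 0.12 without KO library 2 (limma adjusted p = 0.280), so that library moved it by over 1.5 times. Without KO libraries 2 and 5 it was 0.07 (limma adjusted p = 0.379). The WT libraries agreed within sampling noise, with a spread of 1.13% of the mean where counting error alone would give 2.33%. Among KO libraries 1 to 4 it was 19.0%, and KO library 2 set most of it.

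The ratio of Tor1aip1 to Tor1aip2 was 0.725, 0.586, 0.858, 0.937 and 1.33 in KO libraries 1 to 5, against 0.826 to 0.881 in WT. KO libraries 1 and 2 lay below the WT range, KO libraries 4 and 5 lay above it and KO library 3 lay within it. The mean log2 ratio was -0.23 ± 0.44 in KO and -0.22 ± 0.04 in WT (SD, n = 5 each), a difference of -0.006 (exact permutation p = 0.984, 0.984 adjusted over the 4 ratios). The deposited loci overlap by 817 bases, and the matching GENCODE models share 351 exonic bases. Reads from these bases cannot be told apart without strand, and the use of strand is not given in the sources used here.

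**Figure D5:**
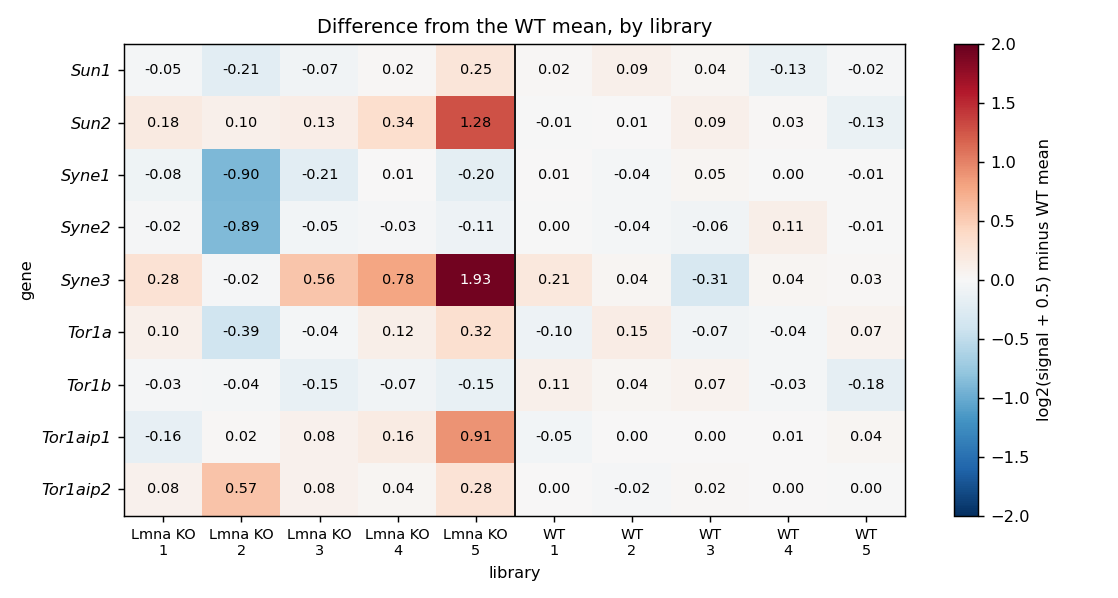
Difference of log2(signal + 0.5) from the WT mean for each gene (down the page) in each library (across, Lmna KO left of WT), as colour and number. KO library 2 is set apart by Syne1 and Syne2 (-0.90 and -0.89) and Tor1aip2 (0.57), and KO library 5 by Syne3 (1.93), Sun2 (1.28) and Tor1aip1 (0.91).

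Sun2 and Tor1aip2 were the 2 of 9 members (22.2%) that were higher in Lmna KO with no overlap between the genotypes, and 4.07% of all genes tested were. Both gaps were narrow. The lowest KO and highest WT values were 117.5 and 117.2 for Sun2, and 105.6 and 104.5 for Tor1aip2. Counting error in WT was 2.26% of the mean for Sun2 and 2.33% for Tor1aip2. None of the 9 was lower with no overlap, where 6.18% of all genes were (795 of 12855). In KO library 5 alone 6 of 9 members (66.7%) lay above every WT library and 2 (22.2%) below, where 40.9% and 41.9% of all genes did. In that library 3 of 9 members, Sun2, Syne3 and Tor1aip1, were at least 1.5 times the WT mean, where 21.1% of all genes were. In KO library 2 the members above and below every WT library were 2 and 4 of 9, where the shares of all genes were 34.7% and 38.1%. In that library 2 of 9, Syne1 and Syne2, were at or under the WT mean divided by 1.5, where 15.3% of all genes were.

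Levels of the 9 genes were ordered per kilobase of the protein-coding GENCODE model whose ends best match the deposited locus. In KO they were 41.4 ± 17.2 signal units per kilobase for Sun2, 31.4 ± 6.80 for Syne1, 24.9 ± 8.18 for Tor1aip1, 19.7 ± 3.23 for Tor1aip2 and 17.2 ± 2.06 for Sun1 (SD, n = 5). In WT they were 37.1 ± 0.822 for Syne1, 29.6 ± 1.63 for Sun2, 20.9 ± 0.476 for Tor1aip1, 17.3 ± 1.01 for Sun1 and 16.8 ± 0.189 for Tor1aip2 (SD, n = 5). Without KO libraries 2 and 5 the KO levels were 34.5 ± 2.71 for Sun2 and 34.9 ± 2.67 for Syne1 (SD, n = 3). These means differed by less than either SD, so no order of Sun2 and Syne1 stood out in KO without those libraries. Without them Tor1aip1 was at 21.4 ± 2.44, Tor1aip2 at 17.6 ± 0.307 and Sun1 at 16.9 ± 0.545 (SD, n = 3). The lower 4 kept the same order, with Tor1b at 12.2 ± 0.520 in KO and 12.9 ± 1.01 in WT, Syne2 at 9.81 ± 2.13 in KO and 11.2 ± 0.529 in WT, Tor1a at 7.33 ± 1.33 in KO and 7.14 ± 0.543 in WT, and Syne3 at 2.79 ± 1.78 in KO and 1.48 ± 0.198 in WT. Among WT libraries the neighbours Sun1 and Tor1aip2, and Tor1b and Syne2, overlapped in this order. If the reads of Syne1 came from the longest protein-coding model, of 27908 bases, its WT level would be 9.30 per kilobase and it would stand below Syne2.

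Related genes were read from lists of names. Of 7 genes listed as other SUN and KASH genes, 3 were tested and 0 passed. The most abundant was Mrvi1 (17.5 ± 3.61 in KO and 20.8 ± 1.33 in WT, SD, n = 5 each, limma adjusted p = 0.313). Whether Mrvi1 belongs to this family was not checked. Of the 3 other torsins 0 passed, with Tor3a at 14.1 ± 2.01 in KO and 12.7 ± 2.26 in WT (SD, n = 5 each, limma adjusted p = 0.549). The median log2 change of the 3 genes tested from the SUN and KASH list was -0.27 with all libraries, which is the value of Mrvi1 itself. It was -0.07 without KO library 5 and 0.10 without KO libraries 2 and 5, so its sign rested on those libraries. The median of the other torsins was 0.05, 0.02 and 0.04 in the same 3 fits. In the fit with all libraries 0 genes of either list had an unadjusted limma p under 0.05. Among 17 partners on the cytoskeleton, motors and centrosome 0 passed and the median was -0.15 (-0.18 without KO library 5 and -0.08 without KO libraries 2 and 5), with Dst, a cytoskeletal linker and the most abundant, at 1860 ± 482 in KO and 2119 ± 68.7 in WT (SD, n = 5 each, limma adjusted p = 0.482). An unadjusted limma p under 0.05 was found for 2 of the 17 (11.8%), where 20.8% of all genes had one. Without KO libraries 2 and 5, where 10.7% of all genes were called, 1 of the 17 was, Dctn1, a dynactin subunit named here after its values were seen. It rose by 0.27 on the log2 scale (limma adjusted p = 0.0359). The median of these 17 was -0.64 in KO library 2, against -0.08 to 0.10 in the other KO libraries. Among 5 genes of lipin and its regulators, which act in lipid synthesis and are linked to torsin in flies, 0 passed, 0 had an unadjusted limma p under 0.05 and the median was 0.07 (0.09 without KO library 5 and 0.03 without KO libraries 2 and 5), with Lpin1 at 207 ± 9.75 in KO and 215 ± 34.6 in WT (SD, n = 5 each, limma adjusted p = 0.876).

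Among 9 nuclear envelope partners 0 passed with all libraries and 3 (33.3%) had an unadjusted limma p under 0.05, where 20.8% of all genes had one. Their median log2 change was -0.02, and it was 0.12 without KO library 5 and -0.07 without KO libraries 2 and 5. Tmem43, which encodes the inner membrane protein LUMA, was called without KO library 5, where 4.98% of all genes were. It was at 49.2 ± 8.11 in KO libraries 1 to 4 (SD, n = 4) and 33.2 ± 2.89 in WT (SD, n = 5), and rose by 0.55 on the log2 scale (limma adjusted p = 0.0219). With all libraries its limma adjusted p was 0.0972. In the same fit without KO library 5, 0 of the 9 SUN, nesprin, torsin and cofactor genes were called and 2, Sun2 and Syne3, had an unadjusted p under 0.05, where 22.5% of all genes had one.

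The genes whose log2 signal followed each member most closely over the 10 libraries were taken as the 2 with the highest Pearson r among 12233 named genes. These were Trmt6 (r = 0.996) and Lmbr1l (0.991) for Sun2, Atp6v1g1 (0.983) and Cnot10 (0.949) for Sun1, and Dctn6 (0.985) and Drap1 (0.981) for Syne3. They were Atp5b (0.985) and Mrpl11 (0.983) for Syne1 and Ift43 (0.993) and Tnnt1 (0.987) for Syne2. For Tor1aip1 they were Rnf114 (0.991) and Zmym5 (0.989), and for Tor1aip2 Pias2 (0.989) and Tmem87b (0.977). For Tor1a they were Mnat1 (0.961) and Dctn3 (0.956), and for Tor1b Amigo3 (0.929) and Spp1 (0.849). These values were picked as the highest of many and carry no test, and for every member except Tor1b, KO library 2 or 5 was among the 2 libraries farthest from the member's median. Without the 2 farthest libraries r was between 0.651, for Ift43 with Syne2, and 0.942, for Trmt6 with Sun2.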

How the data were processed

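Total RNA of 10 hearts was sequenced, 5 Lmna KO and 5 WT. Per the labels, each library was run on 3 lanes. The submitters' processing notes name mm10, TopHat2, Cufflinks and edgeR, without versions or roles. The authors deposited 1 signal value per gene and library for 14647 rows, by the sheet's name CPM of the effective library size, and a table of their own comparison with signal levels, a log2 ratio, a p-value and an FDR, whose edgeR test is not stated. Divided by what 1 read is worth in its library, 100% of deposited values were whole within 0.01, which gave back the reads. A total of 21 rows named by dates, with 0.134% to 0.204% of reads, were left out.

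Limma 3.58.1 (R 4.3.3) was run on log2(signal + 0.5) with an intensity trend over the 12855 genes whose signal averaged 1 or more, adjusted over all of them by Benjamini-Hochberg. edgeR 4.0.16 and DESeq2 1.42.0 were run on recovered reads. Exact permutation tests were used for 4 ratios. Functions were tested on simulated data. Alternatives were pseudocounts of 0.1 and 1, other filters and scalings, libraries left out, a replicate block, robust moderation and library weights, and edgeR without KO library 5, which was chosen after seeing the data. The members and lists were chosen with earlier results of these data known. Members, Lmna, called or most abundant list members, and the 2 most similar genes per member are named. In each pair of libraries of a genotype the counts differed beyond sampling noise (chi-square per degree of freedom at least 5.09), so none was counted as a repeat. Promoters are from RefSeq (GRCm38.p6), where 8 of 9 members had a window, and lengths are from GENCODE M21. That libraries are separate mice rests on the labels. Intervals of counting error cover counting only.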

Additional observations from a re-analysis of the deposited data

Results flagged for a closer look

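In 5 of 26 sets of 5 values (9 genes and 4 ratios in each genotype), a KO library stood far from the rest of its group, with a gap to the nearest library above 0.71 of the group's range. Chance gives about 1 in 20 for separate sets of normally spread values. These sets share the same libraries, and the ratio of Sun1 to Sun2 reuses the values of Sun2, so that rate does not apply here. The share of all genes with such a gap was not counted. Sun2 was 266.6 in KO library 5, where the other KO libraries had 117.5 to 139.1. Syne3 was 29.92 in KO library 5, against 7.37 to 13.3 in the others. Tor1aip1 was 165.9 in KO library 5, against 79.0 to 99.0 in the others. Syne2 was 130.7 in KO library 2, against 224.6 to 238.2 in the others. The log2 ratio of Sun1 to Sun2 was -1.651 in KO library 5, against -0.94 to -0.82 in the others. No such gap was found in a set of WT values. KO libraries 2 and 5 also held the lowest sums of cardiomyocyte markers (84530 and 79050), and the part of this in the values above was not tested.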

How the results depend on the processing

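Of the 9 genes, 0 were called under 21 of 23 alternatives, and 1, Syne3, was called without KO libraries 2 and 5 and with library weights. The count over all genes was 26, and it was 14 at a minimum mean signal of 5, 1370 without KO libraries 2 and 5, 2280 with library weights, 786 by DESeq2 (464 higher, 322 lower), 623 by edgeR without KO library 5, and 6 to 640 with each library left out. KO library 5 gave the 640, and the cause was not tested. Log2 changes ran from 0.40 to 0.92 for Syne3, 0.19 to 0.49 for Sun2, -0.35 to -0.09 for Syne1 and 0.07 to 0.25 for Tor1aip2.

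Sun1, with no call, had log2 changes of -0.0766 to 0.0371 with each library left out, turning sign to 0.037, 0.0026 and 0.0116 without KO library 2, KO library 3 or WT library 2, to 0.0033 by edgeR and to 0.0032 by DESeq2. Tor1a, with no call, had -0.0532 to 0.124, turning to -0.0038, -0.0532 and -0.0046 without KO library 4, KO library 5 or WT library 1, and to -0.0349 by edgeR without KO library 5. The log2 ratio of Sun1 to Sun2 differed by -0.473 to -0.264 with each library left out. Its exact permutation p adjusted over the 4 ratios was then 0.0635 each time, so it no longer passed. Without KO libraries 2 and 5 the difference was -0.250 (exact permutation p = 0.143 adjusted over the 4 ratios). In all these fits too few libraries remain for the adjusted p to pass when the other ratios do not differ. The difference for Tor1aip1 to Tor1aip2 was -0.165 to 0.129 with each library left out.

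The replicate numbers did not pair the libraries: deviations of same-numbered libraries correlated at -0.134 to 0.182, and 1 of 5 KO libraries correlated best with its own number. With a replicate block 35 genes were called, 29 higher and 6 lower, against 15 and 11 without it, and 0 of the 9 members. For Sun1 to Sun2 the difference under the block was -0.4175, with a sign-flip p of 0.0625, the smallest that 5 pairs allow. Depth limits Syne3 and Tor1a, with as few as 89 and 130 reads in a library.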
